A study of Mus musculus with 8 samples.

Results

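Enteric neuron and glia genes are followed here through corpus tissue of 8 mice. They are 37 genes, of 54532 in the count table, taken by name: genes of neuronal identity, cytoskeleton, synaptic release, transmitters, neuropeptides, sodium channels and enteric glia. All 37 had a row in the table. RNA came from the corpus, the acid- and pepsinogen-secreting region, of untreated mice on a mixed background of C57BL/6 and CD1. The 4 controls were Six2-Cre+/- with PKAcaR wt/wt, and the 4 mutants were Six2-Cre+/- with PKAcaR fl/wt, so every animal carried a Cre driven by Six2. PKAcaR is an allele of Prkaca, the gene of catalytic subunit alpha of the cyclic AMP-dependent kinase PKA, and is known to encode a form of the kinase that stays active without cyclic AMP once Cre has acted. The series' design text calls the 4 libraries of a group biological replicates. The sources used here give neither age nor sex.

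The stomach wall holds its own nervous system, built from neural crest cells that migrate into the gut. Its neurons sit mostly in the myenteric plexus, between the muscle layers, where acetylcholine and substance P excite the muscle and nitric oxide and vasoactive intestinal peptide relax it. Their cell bodies are surrounded by enteric glia, which share the transcription factor Sox10 with Schwann cells. In a piece of whole wall these cells give a small share of the RNA. In such bulk samples fewer cells of a type and less RNA per cell cannot be told apart.

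A textbook route leads from the kinase to promoters. PKA phosphorylates CREB, which binds the cyclic AMP response element, the palindrome TGACGTCA, and also its core TGACG. RefSeq promoter windows (GRCm38.p6, 300 bases) were on hand for 27 of the 37 genes, in 37 windows. The full element stood in 2 of these 27 genes (7.41%), against 2.03% of all 27025 genes with a window. The core on either strand (TGACG or CGTCA, full elements included) stood in 13 of the 27 (48.1%), against 23.0% of all genes. Windows of Elavl2 and of Elavl4 overlap one another. A match describes the letters of the window and is neither a site nor a cause. Printed are the 250 bases before the RefSeq start of Syn1 and Th, the genes with a full element, of Tac1, with 2 separate cores, and of Vip, whose cyclic AMP response is textbook knowledge. Capitals mark the matches.
Syn1: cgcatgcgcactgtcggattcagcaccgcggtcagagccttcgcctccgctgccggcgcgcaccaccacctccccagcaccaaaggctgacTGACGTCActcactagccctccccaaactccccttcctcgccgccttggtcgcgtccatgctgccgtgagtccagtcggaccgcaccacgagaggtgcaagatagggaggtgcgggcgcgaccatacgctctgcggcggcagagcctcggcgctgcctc
Th: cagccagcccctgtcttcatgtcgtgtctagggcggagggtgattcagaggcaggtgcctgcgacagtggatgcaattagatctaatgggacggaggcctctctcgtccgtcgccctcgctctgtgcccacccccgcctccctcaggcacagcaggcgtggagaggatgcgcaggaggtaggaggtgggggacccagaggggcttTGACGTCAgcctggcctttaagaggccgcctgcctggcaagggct
Tac1: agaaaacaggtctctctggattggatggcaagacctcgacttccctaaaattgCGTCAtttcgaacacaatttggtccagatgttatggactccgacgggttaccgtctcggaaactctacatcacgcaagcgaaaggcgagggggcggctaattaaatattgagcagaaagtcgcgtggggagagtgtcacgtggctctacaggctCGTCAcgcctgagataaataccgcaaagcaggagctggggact
Vip: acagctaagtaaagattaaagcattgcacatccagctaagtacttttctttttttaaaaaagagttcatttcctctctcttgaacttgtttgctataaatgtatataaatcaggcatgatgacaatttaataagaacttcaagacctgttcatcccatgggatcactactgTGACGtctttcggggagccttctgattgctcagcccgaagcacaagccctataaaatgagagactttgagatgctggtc
The stretch of Syn1 (chrX:20920919-20921168, minus strand) has its match beginning 159 bases before the start, and that of Th (chr7:142899996-142900245, minus strand) 45 bases before it. Tac1 (chr6:7554811-7555060, plus strand) has matches beginning 197 and 43 bases before the start, and Vip (chr10:5638968-5639217, plus strand) 79 bases before it. Syn1 and Tac1 were lower in mutants, Th did not pass the low-count filter, and Vip was not called, as described below.

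Libraries held 18184281 to 23814720 counted reads. Levels are given as CPM, read counts divided by a library size that was adjusted with TMM factors. Prkaca itself measured 80.2 ± 4.05 CPM (SD, n = 4) in the control group against 37.9 ± 1.87 CPM in the mutant group, and all 4 mutants lay below all 4 controls. Mutant 2 stood apart from the rest. Across tested genes the correlation of its log2 CPM with mutants 1, 3 and 4 was 0.839 to 0.881, where these 3 reached at least 0.977 between themselves. It held 40894 summed CPM of the 10 genes of the fibroblast list, where the other 7 libraries held 1661 to 2836. The lists of endothelium (1200 summed CPM against 210 to 441) and of interstitial cells of Cajal (870 against 80.1 to 149) were also highest there, as was that of macrophages (942 against 148 to 265). The mesothelial list had its lowest sum there (371 against 1484 to 2915), which its most abundant genes dominate. Its mean over genes of log2(CPM + 0.5) was highest there instead (3.84 against 2.15 to 3.75). Counts of called genes are therefore also given without mutant 2. Control 3 and mutant 3 held squamous forestomach transcripts (271 and 726 summed CPM against at most 3.51 elsewhere). The parietal cell list, a mark of corpus, summed to 19684 to 25761 CPM in controls and 510 to 4562 in mutants, and the chief cell list to 298412 to 533952 and 996 to 41618.

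Of the 33 neuronal genes 12 were called lower, 14 were tested and not called and 7 were not tested, where 10.8% of all genes tested were called lower. Leaving out mutant 2 gave 23 lower of 26 tested. The 33 genes together gave 213, 167, 193 and 174 CPM in controls 1 to 4 and 16.9, 111, 25.3 and 35.7 CPM in mutants 1 to 4. Every mutant lay below every control, mutant 2 by the least. Of the 37 genes, 30 passed the low-count filter, 13 were called lower, none higher and 17 neither way (edgeR's quasi-likelihood test with p adjusted by Benjamini-Hochberg over 15862 genes and a threshold of 0.05, the source of every adjusted p given here unless another tool is named). Over all genes tested 10.8% were called lower and 9.39% higher. All 4 mutants lay below all 4 controls in 21 of the 30, against 16.1% of all genes tested. The median log2 fold change, mutant over control, was -2.44 over the 30 genes and 0.07 over all genes tested. It was the same with Slc10a4, which had no read in any mutant, set at its bound. Without mutant 2, 25 of 30 were called lower and none higher (18.3% of all genes lower, 15.2% higher), with a median of -3.30. The groups then lay apart, mutants lower, in 25 of 30, against 21.7% of all genes. Only 11 of the 30 passed the filter in all 8 libraries, and of these 4 were lower, or 9 without mutant 2. The other 19 passed through the controls, where they are high, so the filter itself favoured genes with lower mutant levels: the counts and the median over the 30 are descriptions and support nothing about all 37. Column totals as library sizes shifted all genes tested upward, to a median of 0.76, and then 12 of the 30 were lower (4.56% of all genes) and none higher (59.3% of all genes).

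**Figure D1:**
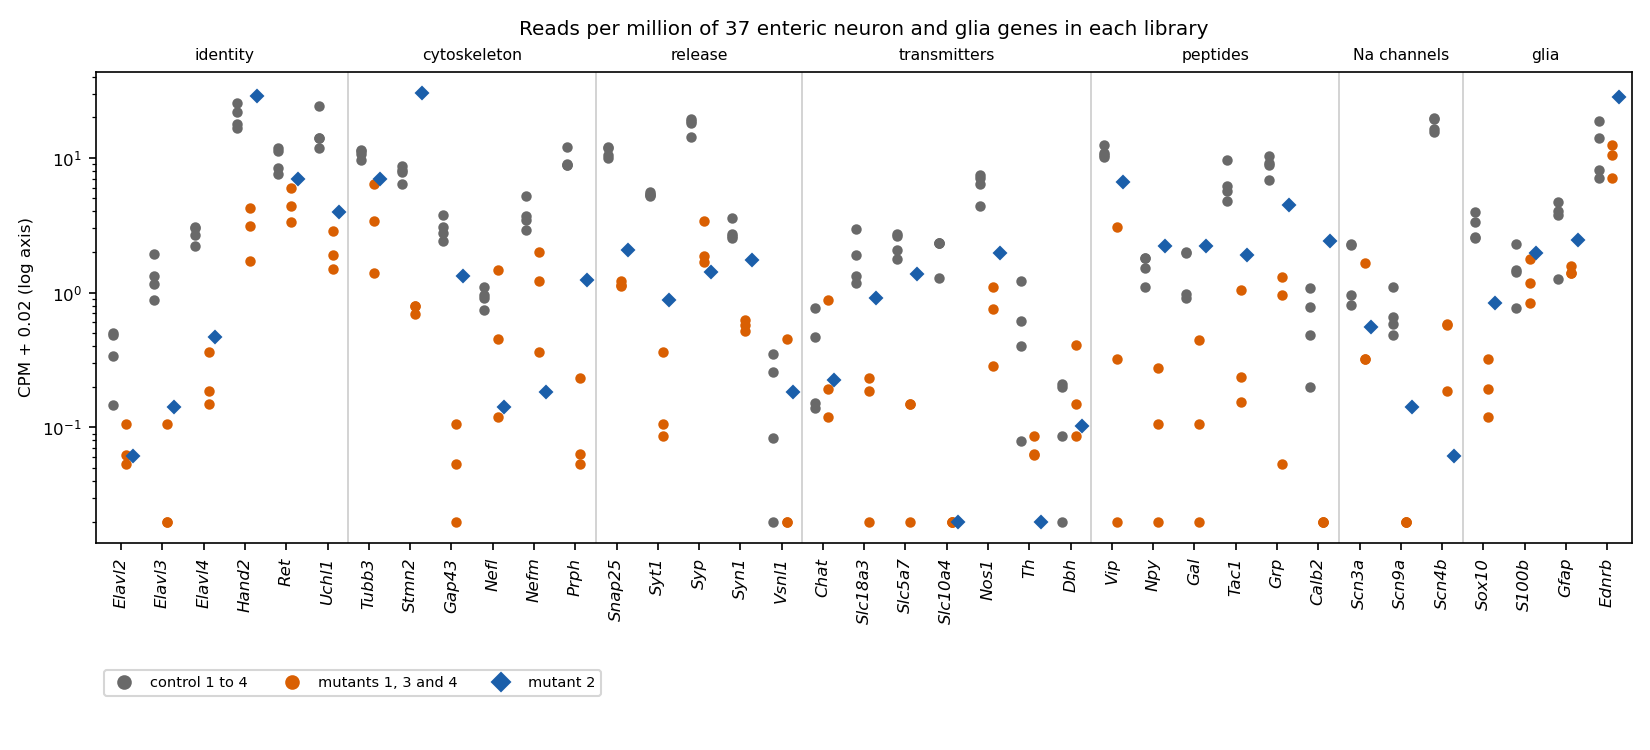
CPM (plus 0.02, log axis) of the 37 genes in each library, by role; grey points are the 4 controls, orange points mutants 1, 3 and 4, blue diamonds mutant 2. For most neuronal genes the orange points lie far below the grey ones, and mutant 2 mostly lies between them. It lies above all controls for Hand2, Stmn2, Npy, Gal, Calb2 and the glial gene Ednrb. For Scn4b, Syp, Nefm and Th it lies below the other mutants.

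Of the 5 tested genes of neuronal identity 3 were lower, or all 5 without mutant 2. Elavl4 (ENSMUSG00000028546, chromosome 4, 110203722 to 110351909), a neuronal RNA-binding protein, measured 2.20, 2.64, 3.06 and 2.99 CPM in the controls and 0.167, 0.45, 0.345 and 0.129 CPM in the mutants. Its groups did not overlap (log2 fold change -3.30, SE 0.43, adjusted p = 0.0023). Elavl3, its close relative, measured 1.30 ± 0.449 CPM in controls and 0.0521 ± 0.0620 in mutants (fold change -4.54 in log2, SE 0.79, adjusted p = 0.00599), with no read in mutants 1 and 3. Elavl2, the third neuronal member of the family, had 2 to 8 reads in controls and 1 or 2 in mutants, below the filter, and was not called when the filter was dropped (adjusted p = 0.0581). The ELAV genes are alike in sequence, and how their shared reads were counted is not given in the sources used here. Uchl1, an abundant neuronal deubiquitinating enzyme that endocrine cells also make, had 16.0 ± 5.61 CPM in controls and 2.53 ± 1.09 in mutants (fold change -2.66 in log2, SE 0.38, adjusted p = 0.00325). Ret, the receptor through which the growth factor GDNF sustains enteric neurons, was at 8.35, 7.51, 11.9 and 11.3 CPM in controls and 3.34, 6.95, 4.40 and 5.96 in mutants. All mutants lay below all controls, yet Ret just missed the threshold (log2 fold change -0.92, SE 0.28, adjusted p = 0.051). It was called without mutant 2 (-1.10, adjusted p = 0.00629) and by DESeq2 (adjusted p = 0.00966).

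Hand2 (ENSMUSG00000038193, chromosome 8, 57320983 to 57324633) encodes a transcription factor of enteric neurons and of gut mesenchyme. It measured 25.6, 16.6, 21.8 and 17.9 CPM in controls, and 1.70, 28.6, 3.10 and 4.20 CPM in mutants. Mutants 1, 3 and 4 lay below every control and mutant 2 above every control. Over all 4 mutants Hand2 was not called (log2 fold change -1.12, SE 0.81, adjusted p = 0.35), and without mutant 2 it was lower (-2.78, SE 0.29, adjusted p = 8.17e-05). The antisense gene AV026068 overlaps the span of Hand2, at 10.6 CPM on average in controls and 7.68 in mutants. Reads in any bases that the pair shares cannot be told apart without the strand setting.

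Of the 6 genes of neuronal cytoskeleton and growth, 1 was lower over all mutants and 5 without mutant 2. Peripherin, Prph (ENSMUSG00000023484, chromosome 15, 99055174 to 99058978), an intermediate filament of peripheral neurons, measured 12.1, 8.83, 9.00 and 8.85 CPM in controls and 0.0334, 1.23, 0.0431 and 0.214 CPM in mutants. It fell to 1 read in each of mutants 1 and 3 (log2 fold change -4.66, SE 0.95, adjusted p = 0.0129). Gap43, a protein of growing axon tips, measured 2.76, 3.03, 3.77 and 2.39 CPM in controls and 0.0334, 1.31, 0 and 0.0857 in mutants. The groups did not overlap, but with mutant 2 in the fit Gap43 was not called (-3.05, SE 1.10, adjusted p = 0.083). Without mutant 2 it was lower (-6.04, SE 0.60, adjusted p = 3.67e-05). Stmn2 (ENSMUSG00000027500, chromosome 3, 8509360 to 8561606), a microtubule regulator of growing axons, split the mutants most. Controls measured 8.10, 6.32, 8.62 and 7.78 CPM, mutants 1, 3 and 4 measured 0.668, 0.776 and 0.771, and mutant 2 measured 30.1, or 735 reads. Its log2 fold change was 0.07 (SE 1.21, adjusted p = 0.974) over all 4 mutants and -3.38 (SE 0.25, adjusted p = 8.43e-06) without mutant 2. Tubb3, the neuronal beta-tubulin, lay at 9.62 to 11.4 CPM in controls and 1.37 to 6.95 in mutants (-1.25, SE 0.45, adjusted p = 0.0821), with all mutants below all controls.

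Of the neurofilament pair, Nefl overlapped between groups and Nefm did not. Nefm, the medium chain, was at 2.87 to 5.21 CPM in controls and at 1.97, 0.164, 1.21 and 0.343 CPM in mutants (log2 fold change -2.02, SE 0.68, adjusted p = 0.069). Its groups did not overlap, and it was lower without mutant 2 (-1.67, adjusted p = 0.0197). Nefl, the light chain, was at 0.725 to 1.08 CPM in controls and 0.10, 0.123, 0.431 and 1.46 CPM in mutants. Here mutant 4 lay above every control, and Nefl was not called (-0.80, SE 0.78, adjusted p = 0.487). Both were lower in mutant 2 than the mean of the other mutants, the reverse of Stmn2. Their annotated spans overlap on opposite strands, so reads in any bases they share cannot be separated without the strand setting.

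All 4 tested genes of synaptic vesicle release were lower, also without mutant 2. Snap25 (ENSMUSG00000027273, chromosome 2, 136713453 to 136782428), part of the membrane fusion complex, measured 11.9, 9.95, 12 and 10.4 CPM in controls and 1.10, 2.04, 1.12 and 1.20 in mutants. Its log2 fold change was -3.01 (SE 0.27, adjusted p = 0.000912). Syp, synaptophysin of the vesicle membrane, measured 19.4, 14.2, 18.8 and 18.1 CPM in controls and 1.67, 1.39, 3.36 and 1.84 in mutants (-3.09, SE 0.30, adjusted p = 0.0011). In both genes the mutants held a small part of the control level, mutant 2 among them. Syt1, the calcium sensor of release, went from 5.37 ± 0.149 to 0.339 ± 0.369 CPM (-3.98, SE 0.71, adjusted p = 0.0082). Syn1, synapsin, which tethers vesicles, went from 2.85 ± 0.494 to 0.845 ± 0.583 CPM (-1.75, SE 0.45, adjusted p = 0.0283). The call of Syn1 was lost when any library other than mutant 2 was left out (adjusted p 0.0577 to 0.0835), and with column totals (adjusted p = 0.0734). Timp1, which lies inside Syn1 on the other strand, stood at 1.03 CPM in controls, 67.4 in mutants, and Araf, also on that strand, at 81.3 and 86.0, and their part in Syn1 was not tested. Vsnl1, a neuronal calcium sensor, had at most 10 reads in any library. Snap25, Syp and Syt1 are also made by endocrine cells, whose list is given below.

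Tested transmitter genes of cholinergic and nitrergic neurons were lower or, with mutant 2 in the fit, not called. Slc10a4 (ENSMUSG00000029219, chromosome 5, 73006883 to 73012955), an orphan carrier of synaptic vesicles, had 37, 35, 36 and 21 reads in controls and none in any mutant. Against a floor of 3 reads per library it was at least 17.0-fold lower (adjusted p = 0.00203). No other gene of the 37 was at 0 in all mutants. Nos1, which makes nitric oxide in inhibitory motor neurons, measured 7.41, 4.35, 7.09 and 6.34 CPM in controls and 0.267, 1.96, 0.733 and 1.07 in mutants. It fell by 2.64 on the log2 scale (SE 0.54, adjusted p = 0.0132). Slc5a7, the choline uptake carrier, measured 1.76, 2.70, 2.04 and 2.63 CPM in controls and 0, 1.35, 0.129 and 0.129 in mutants. Slc18a3, which loads acetylcholine into vesicles, was at 1.15 to 2.96 CPM in controls and at 0.167, 0.900, 0 and 0.214 CPM in mutants. For both carriers all mutants lay below all controls and mutant 2 was the highest mutant. Neither was called over all mutants (log2 fold changes -2.50 and -2.49, SE 1.01 and 0.87, adjusted p = 0.113 and 0.0756), and both were lower without mutant 2 (adjusted p = 0.000226 and 0.00159). Chat, the acetylcholine synthase, had 12, 2, 7 and 2 reads in controls and 3, 5, 4 and 20 in mutants, and was not tested. With the filter dropped it was not called (log2 fold change -0.12, adjusted p = 0.934). Slc18a3 lies within the span of Chat on the same strand.

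Catecholamine genes had few reads. Th, which makes the dopamine precursor, had 19, 9, 6 and 1 reads in controls and 2, 0, 1 and 1 in mutants. Dbh, which makes noradrenaline, had 0 to 3 reads in controls and 2 to 9 in mutants. Neither passed the low-count filter. With the filter dropped Th was called lower (log2 fold change -3.62, adjusted p = 0.0452 over 29210 genes) and Dbh was not called (0.57, adjusted p = 0.735).

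Neuropeptide genes were low in mutants 1, 3 and 4 and closer to controls in mutant 2. Tac1, the precursor of substance P, measured 9.61, 6.19, 4.72 and 5.62 CPM in controls and 0.134, 1.88, 0.216 and 1.03 in mutants. It was the 1 peptide gene called over all mutants (log2 fold change -3.0, SE 0.77, adjusted p = 0.0285), a call lost when a control or mutant 4 was left out (adjusted p 0.0601 to 0.0815). Vip (ENSMUSG00000019772, chromosome 10, 5639218 to 5647617), vasoactive intestinal peptide, measured 10.9, 10.2, 12.4 and 10.4 CPM in controls and 0, 6.62, 0.302 and 3.04 in mutants. Every mutant lay below every control, but the mutants ranged from no read to 162 reads. Vip was not called with mutant 2 (-2.14, SE 1.15, adjusted p = 0.213) or without it (-3.34, SE 1.09, adjusted p = 0.0588), but limma-voom, which weights samples, called it lower (adjusted p = 0.0104). Grp, gastrin-releasing peptide, measured 10.2, 8.76, 9.06 and 6.82 CPM in controls and 0.0334, 4.42, 1.29 and 0.943 in mutants (-2.38, SE 0.92, adjusted p = 0.0992). Without mutant 2 it was lower (-3.56, adjusted p = 0.00523).

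Npy and Gal, the genes of neuropeptide Y and galanin, were higher in mutant 2 than in any control. Npy was at 1.51, 1.78, 1.09 and 1.79 CPM in controls and 0, 2.21, 0.0862 and 0.257 in mutants (log2 fold change -1.27, adjusted p = 0.437). Gal was at 1.95, 1.98, 0.894 and 0.957 CPM in controls and 0, 2.21, 0.0862 and 0.429 in mutants (-1.08, adjusted p = 0.508). Both were lower without mutant 2 (-3.76 and -3.10, adjusted p = 0.00191 and 0.013). Calb2, the calcium-binding protein calretinin, had 17, 7, 12 and 3 reads in controls, 59 in mutant 2 and none in mutants 1, 3 and 4, and was not tested.

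Of the sodium channel genes, Scn4b changed furthest. Scn4b (ENSMUSG00000046480, chromosome 9, 45138395 to 45154152), an accessory beta subunit, measured 19.3, 16.5, 19.8 and 15.5 CPM in controls and 0.167, 0.0409, 0.561 and 0.557 in mutants. It was lowest in mutant 2, with a single read, and its log2 fold change was -5.74 (SE 0.61, adjusted p = 0.00141). Its drop was thus found in the library where Stmn2 and Hand2 were highest. Scn3a, a pore-forming subunit, was at 0.791 to 2.27 CPM in controls and 0.300 to 1.64 in mutants, with overlapping groups (-1.15, SE 0.65, adjusted p = 0.238). Scn9a, a pore-forming subunit of sensory and autonomic neurons, had 7 to 18 reads in controls, 3 in mutant 2 and none in the other mutants. It did not pass the low-count filter, and with the filter dropped it was called lower (log2 fold change -4.25, adjusted p = 0.0254).

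**Figure D2:**
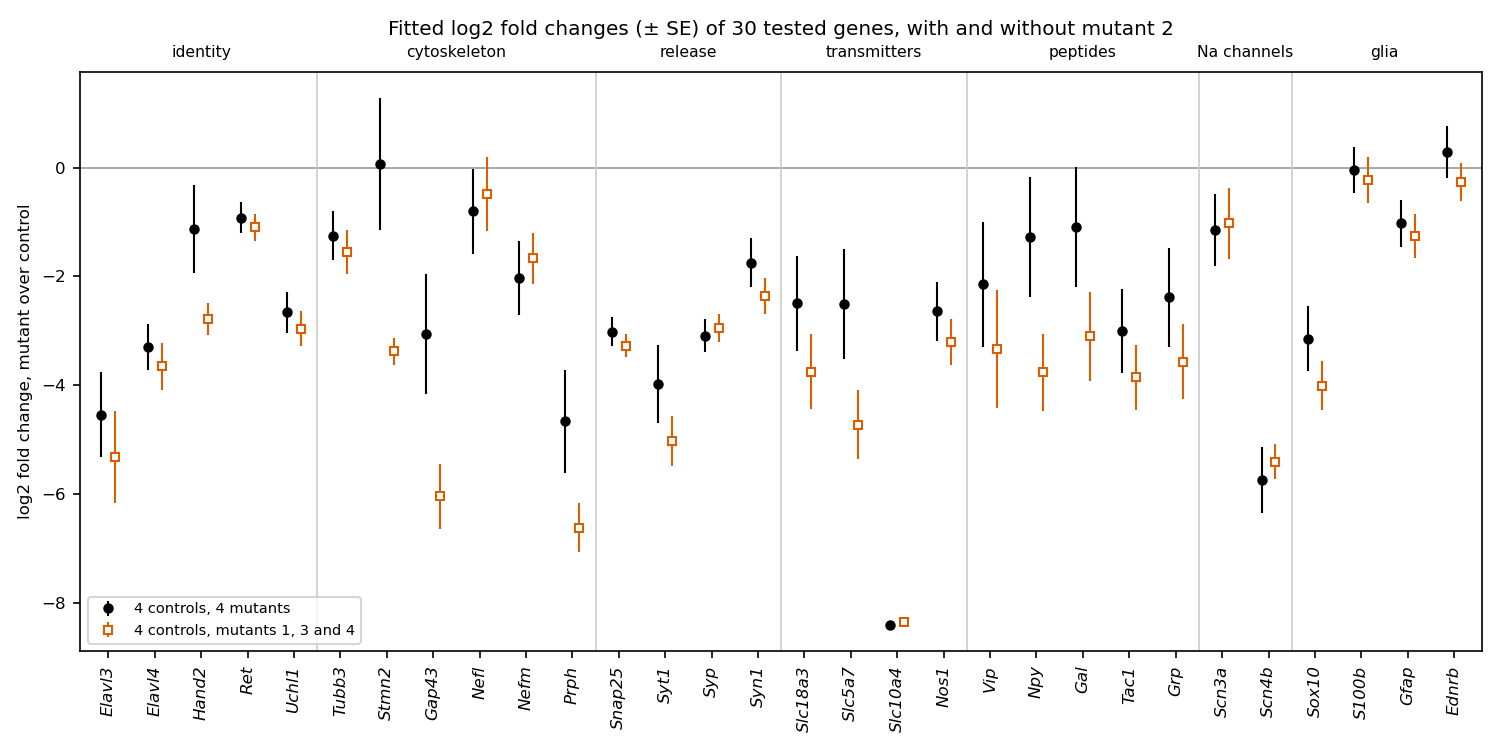
Fitted log2 fold change, mutant over control, of the 30 tested genes with all 4 mutants (black) and with mutants 1, 3 and 4 (orange); bars are the SE, not given for Slc10a4, which had no mutant reads and whose fitted value is no bound. Stmn2, Gap43, Npy, Slc5a7 and Hand2 move down without mutant 2, whereas Snap25, Syp, Elavl4 and Scn4b keep nearly the same value.

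Among the glial genes only Sox10 was called over all mutants. Sox10 (ENSMUSG00000033006, chromosome 15, 79154908 to 79165240), the transcription factor of neural crest glia, measured 3.96, 2.57, 3.32 and 2.51 CPM in controls and 0.10, 0.818, 0.302 and 0.171 in mutants. The groups did not overlap (log2 fold change -3.14, SE 0.60, adjusted p = 0.0101). Gfap, a filament of reactive glia, measured 4.71, 1.25, 3.77 and 4.01 CPM in controls and 1.37, 2.45, 1.38 and 1.54 in mutants. Control 2 lay below every mutant, and Gfap was not called (-1.02, SE 0.43, adjusted p = 0.122), though it was without mutant 2 (adjusted p = 0.0327) or without control 2 (adjusted p = 0.0398). S100b, a calcium-binding protein of glia, was at 0.753, 1.45, 1.40 and 2.27 CPM in controls and 1.77, 1.96, 0.819 and 1.16 in mutants. These groups overlapped throughout (-0.04, SE 0.42, adjusted p = 0.952), and with column totals the value was 0.65 (adjusted p = 0.213). Ednrb, the endothelin receptor of neural crest progenitors, which mesenchyme and endothelium also use, was at 8.16, 7.12, 18.6 and 14.1 CPM in controls and 7.05, 28.4, 10.6 and 12.5 in mutants. It overlapped too, with mutant 2 highest (0.28, SE 0.48, adjusted p = 0.702). Dip2a overlaps the span of S100b on the other strand, at 40.0 CPM in controls and 40.1 in mutants. Reads in any bases that both share cannot be told apart without the strand setting.

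A wider set of nerve and glial genes, chosen by function but with earlier results of these data known, was read from the same fit. It went through the same low-count filter, so its counts are descriptions too. Of 106 further neuronal genes in the table, 81 were tested, 34 were lower and 2 higher, with a median log2 fold change of -0.88. Without mutant 2, 60 of 85 were lower and 4 higher, against 18.3% and 15.2% of all genes. With column totals 24 were lower and 13 higher, against 4.56% and 59.3% of all genes. The median was then -0.15, against 0.76 over all genes tested. These shares of all genes, and 10.8% lower and 9.39% higher over all mutants, apply beside every wider list below. Of the 18 tested receptors and channels 11 were lower and none higher, against 10.8% and 9.39% of all genes. Without mutant 2 it was 15 and 1 of 19, and with column totals 8 and 1 of 18. Chrna3 and Chrnb4, subunits of the ganglionic nicotinic receptor, went from 3.13 ± 1.18 to 0.246 ± 0.0884 CPM and from 3.12 ± 0.410 to 0.333 ± 0.0852 CPM. Both fell (log2 fold changes -3.63 and -3.21, SE 0.44 and 0.30, adjusted p = 0.0019 and 0.000962). Mutant 2, at 0.245 CPM of Chrna3 and 0.368 of Chrnb4, was as low as the other mutants in these receptor genes.

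Of 23 tested presynaptic release genes outside the 37, 9 were lower and none higher. Without mutant 2 it was 16 and 1 of 24, and with column totals 6 and 4 of 23. Cplx1, complexin, and Syn2, a second synapsin, fell (-4.16 and -3.14, SE 0.87 and 0.53, adjusted p = 0.0131 and 0.00633). Of 15 cytoskeletal and axonal genes 6 were lower, or 11 without mutant 2, and with column totals 3 were lower and 1 higher. The 6 included Stmn3 (-3.02, SE 0.55, adjusted p = 0.0083), a relative of Stmn2, and Sncg, gamma-synuclein (-2.82, SE 0.67, adjusted p = 0.0222). Stmn3 was at 0.401, 0.532, 0.0862 and 0.557 CPM in mutants 1 to 4, so mutant 2 did not stand out as it did for Stmn2. Of 15 tested genes of neuronal transcription and lineage only 3 were lower and 1 higher, with a median log2 fold change of -0.16. Without mutant 2 it was 11 and 1 of 17. With column totals 3 were lower and 5 higher, and the median was 0.58. Among these genes Nrsn1, neurensin, and Ntrk3, a neurotrophin receptor, fell (-3.45 and -1.82, SE 0.77 and 0.43, adjusted p = 0.0175 and 0.0205).

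Of 10 other transmitter and peptide genes 5 were lower and 1 higher. Without mutant 2 it was 7 and 1, and with column totals 4 and 2. Those lower over all mutants included Resp18 (-2.87, SE 0.69, adjusted p = 0.0234), of secretory granules, and Sst, somatostatin (-2.75, SE 0.79, adjusted p = 0.042). Sst also stands in the endocrine list, as does Cacna1a of the channels. Slc17a9, a vesicular nucleotide carrier, was higher (0.87, SE 0.25, adjusted p = 0.0405). In the wider list of enteric and Schwann glia 6 of 22 tested genes were lower and 1 higher, or 11 and 3 without mutant 2. Gpr37l1, a glial receptor, went from 2.78 ± 0.969 to 0.303 ± 0.0742 CPM (-3.18, SE 0.37, adjusted p = 0.00174), and Cryab, a small heat shock protein that muscle also makes, from 26.7 ± 2.69 to 6.08 ± 1.86 CPM (-2.14, SE 0.23, adjusted p = 0.00137). The higher gene was Sox2 (1.30, SE 0.35, adjusted p = 0.0333), which stomach epithelium expresses too. The median over the 22 was -0.47. With column totals 6 glial genes were lower and 6 higher, and the median was 0.22, against 0.76 over all genes tested.

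Mutant 2 differed from the other mutants gene by gene rather than evenly. Among the 30 tested genes it held the highest level of the 4 mutants in 24. It lay above every control in Hand2, Stmn2, Npy, Gal and Ednrb, and below every control in 23 of the 30. Relative to the control mean it held 3.90 times the Stmn2, 1.53 times the Gal, 1.43 times the Npy and 1.40 times the Hand2 level. In the same library Snap25 was at 0.185, Elavl4 at 0.165, Elavl3 at 0.0940, Syp at 0.0788 and Scn4b at 0.0023 of the control mean. Mutant 1 was the lowest mutant in 22 of the 30 genes. The fibroblast, endothelial and Cajal cell lists, given above, were highest in mutant 2 as well, and their part in these values was not tested.

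**Figure D3:**
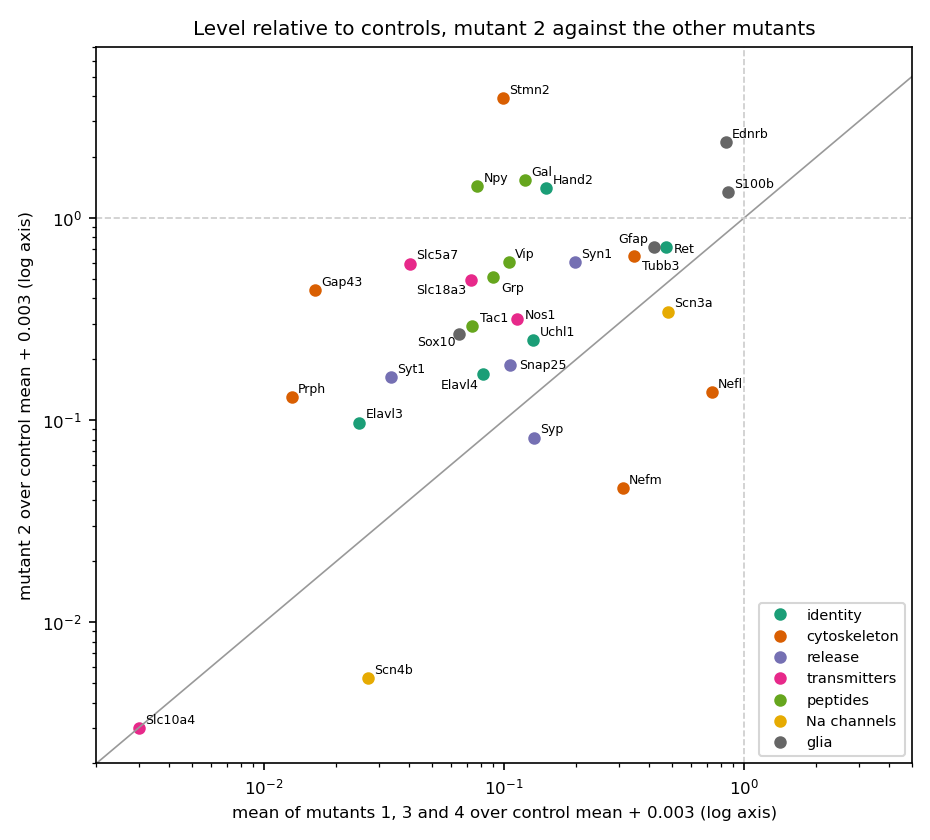
Level in mutant 2 over the control mean against the mean level of mutants 1, 3 and 4 over the control mean (both plus 0.003, log axes), 1 point for each of the 30 tested genes, coloured by role. Points above the diagonal are higher in mutant 2 than in the other mutants; Stmn2 at 3.90 is the highest, and Scn4b, Syp, Nefm, Nefl and Scn3a lie below it.

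Levels can be set against each other between genes only per length, as FPKM, which the authors deposited. In controls Uchl1 was highest, at 9.71 ± 3.42 FPKM, then Hand2 at 8.64 ± 1.73 and Grp at 8.16 ± 1.34 (SD, n = 4). Next came Tubb3 at 5.70 ± 0.439 and Prph at 4.80 ± 0.791, Scn4b at 3.53 ± 0.431, Syp at 3.36 ± 0.454 and Vip at 3.21 ± 0.308. The first 3 lay within their spread of each other, as did Scn4b, Syp and Vip. In mutants the highest were Hand2 at 3.97 ± 5.43, Ednrb at 3.40 ± 2.20 and Tubb3 at 2.40 ± 1.39 FPKM, and mutant 2 was the highest mutant in all 3. Prph, high in controls, was at 0.188 ± 0.284 FPKM in mutants.

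Muscle, endocrine and adipocyte transcripts were also lower in mutants. The smooth muscle list summed to 3128 to 4105 CPM in controls and 327 to 936 in mutants. It was lower in 11 of 12 tested genes, with or without mutant 2, and none of its genes was at 0 in all libraries. The endocrine list summed to 2184 to 3167 CPM in controls and 223 to 573 in mutants, and 10 of 16 tested genes were lower, or 13 without mutant 2. The adipocyte list summed to 128 to 245 CPM in controls and 42.4 to 60.2 in mutants, with 4 of 5 tested genes lower, or 4 of 6 without mutant 2. Endothelial genes were lower only outside mutant 2. Their list summed to 354 to 441 CPM in controls and 210, 233 and 241 in mutants 1, 3 and 4. Of its 11 tested genes 1 was lower over all mutants and 9 without mutant 2, against 18.3% of all genes. Of the 6 tested mesothelial genes 3 were lower and 1 higher without mutant 2. Gast, which had no read in any library, was the sole endocrine gene at 0. Per 1000 CPM of the smooth muscle list the 33 neuronal genes gave 51.9, 46.5, 61.6 and 55.6 CPM in controls and 51.5, 156, 43.9 and 38.1 CPM in mutants. On this scale mutant 1 lay within the controls' range, mutants 3 and 4 below it and mutant 2 above it. The 4 glial genes gave 3.45 to 8.63 CPM per 1000 CPM of smooth muscle in controls and 16.4 to 47.3 in mutants, with all mutants above all controls. Ednrb, which is not particular to glia, gave 7.05, 28.4, 10.6 and 12.5 CPM of the mutants' glial sums of 10.3, 33.6, 13.1 and 15.3. In controls it gave 8.16, 7.12, 18.6 and 14.1 of 17.6, 12.4, 27.1 and 22.9. Ednrb was thus the largest part of the glial sum in every library, while Sox10 was called lower. The glial sums themselves overlapped between groups, whereas the smooth muscle sums they are divided by were lower in every mutant. The part of either in this ratio was not tested. Per 1000 CPM of the endocrine list the neuronal genes gave 61.1 to 79.7 CPM in controls and 33.5, 498, 44.1 and 75.3 CPM in mutants. How much muscle, fat or how many endocrine cells each piece held was not measured, and their part in the nerve values was not tested.

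**Figure D4:**
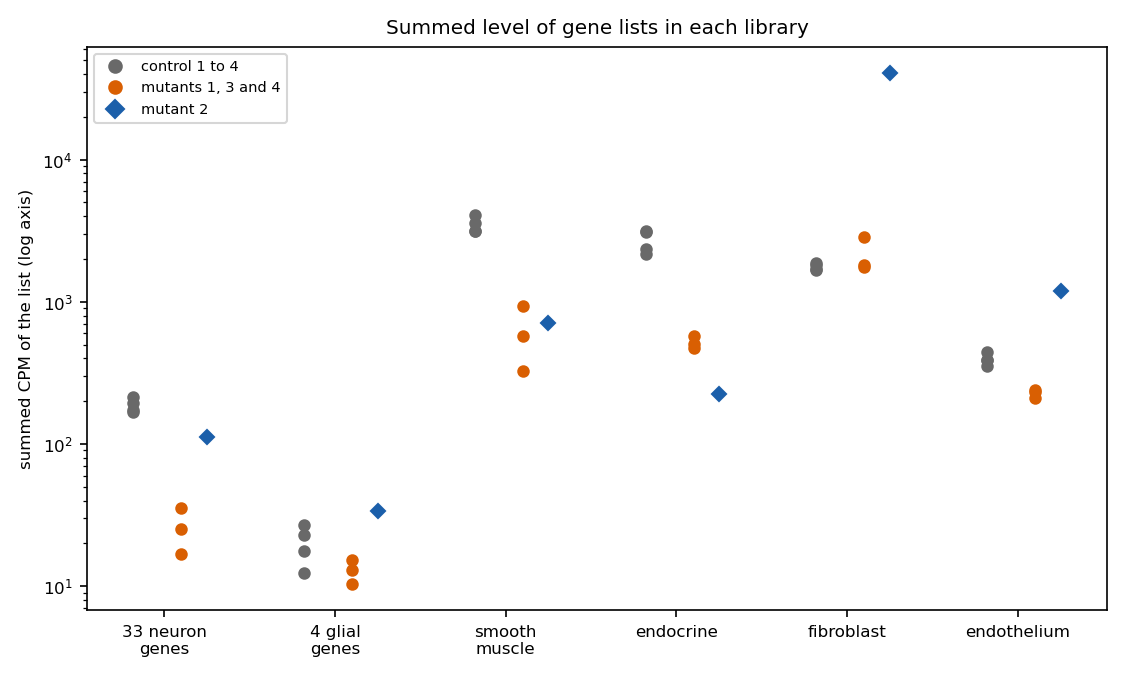
Summed CPM (log axis) of the 33 neuronal genes, the 4 glial genes and 4 lists of other cells in each library; grey points are controls, orange points mutants 1, 3 and 4, blue diamonds mutant 2. Neuronal, smooth muscle and endocrine sums are lower in all 4 mutants than in any control, while fibroblast transcripts reach 40894 CPM in mutant 2 alone.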

How the data were processed

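PolyA RNA of 8 corpus samples (4 control, 4 mutant) was sequenced. The deposited tables hold whole-number counts for each gene, and FPKM that the authors computed. The submitters' processing notes list featureCounts, STAR 2.5, fastp and CASAVA and give them no role. Build and strand setting: not given in the sources used here. Of the spans, 35 of 37 equalled those of GENCODE M21 (GRCm38). The control column headed SCI was read as control 1. Counts were filtered (filterByExpr), scaled with TMM and tested with edgeR 4.0.16 (R 4.3.3), robust quasi-likelihood, over all 15862 genes. The SE is the fitted coefficient without prior count over the square root of F. Summed levels are sums of CPM. Replicates differed by more than sampling noise (chi-square per degree of freedom at least 15.4). A floor of 3 reads was 0.100 to 0.198 CPM, for counting error only. Same-numbered samples did not deviate together (correlations -0.0909 to 0.0624).

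All 37 genes were named, with Prkaca. Of the wider lists, the 2 largest called falls and rises at a mean CPM of at least 1 were named per list. The genes and lists were chosen with earlier results of these data known. Alternatives were DESeq2 1.42.0, limma-voom and limma-trend (limma 3.58.1) on log2(FPKM + 1) or log2(FPKM + 0.1), RLE factors, column totals, TMM outside parietal and chief genes, other filters, a replicate block, a threshold of 0.01, and leaving out each library or both with squamous transcripts. Some genes of the wider lists are not reported here by name.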

Additional observations from a re-analysis of the deposited data

Results flagged for a closer look

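Several genes had 1 library far from the other 3 of its group, by a gap past Dixon's 95% value for 4 samples, which chance passes in about 1 of 20 groups. Among the mutants this library was mutant 2 for 11 genes. Stmn2 stood at 30.1 CPM there against 0.668 to 0.776 in the others, and Hand2 at 28.6 against 1.70 to 4.20. Calb2 was at 2.41 and Scn9a at 0.123 CPM, against 0 in the others. Npy was at 2.21 CPM (others at most 0.257), Slc5a7 at 1.35 (at most 0.129), Gap43 at 1.31 (at most 0.0857) and Prph at 1.23 (at most 0.214). Syn1 was at 1.72 CPM (others at most 0.604), Snap25 at 2.04 (at most 1.20) and Gfap at 2.45 (at most 1.54). Prph, Snap25 and Syn1 were called lower with mutant 2 in the fit all the same. Mutant 4 held 0.857 CPM of Chat, against 0.10 to 0.204 in the other mutants. In controls, Prph was at 12.1 CPM in control 1 against 8.83 to 9.00, and Slc10a4 at 1.26 CPM in control 4 against 2.30 to 2.32.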

How the results depend on the processing

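No member was called higher under any alternative. With mutant 2 left out, 25 members were lower, and with any other single library left out 11 to 14. Over all leave-one-out fits the members' median log2 fold change ran from -3.30 to -2.17, wider neuronal genes lower from 21 to 60 and higher from 0 to 4, wider glial genes lower from 6 to 11 and higher from 0 to 3, and all genes lower from 1018 to 2953 and higher from 665 to 2447. With limma-voom 25 members (median -3.28) and 55 wider neuronal genes were lower, 3 wider glial genes were higher, and 3066 genes in all were lower and 2602 higher. Stmn2 turned from 0.07 to -3.20 with limma-voom (adjusted p = 0.000147) and to -3.38 without mutant 2 (adjusted p = 8.43e-06), with 0.45 as the highest value over the leave-one-out fits. DESeq2 gave 19 members lower, 2 wider glial genes higher and 2309 genes higher in all. At a threshold of 0.01, 8 members, 14 wider neuronal genes and 667 genes in all were lower, and 0 wider neuronal, 0 wider glial and 380 genes in all were higher. With column totals 12 members were lower (median -1.73), 13 wider neuronal and 6 wider glial genes were higher, and 724 genes in all were lower and 9412 higher. Without both libraries with squamous transcripts 8 members, 15 wider neuronal genes and 823 genes in all were lower, and 0 wider neuronal, 0 wider glial and 587 genes in all were higher. Nos1, Prph, Sox10, Syn1 and Tac1 were the members no longer called there (adjusted p = 0.0807, 0.0551, 0.0654, 0.115 and 0.0887). On log2(FPKM + 1) with a mean of at least 0.5, the members' median was -1.12, 14 wider neuronal genes were lower and 0 higher, and 3 wider glial genes were lower and 0 higher. On log2(FPKM + 0.1) these were 13 and 1, and 3 and 0. On log2(FPKM + 1) with no filter the median was -0.52, 1 wider neuronal and 0 wider glial genes were higher, and 827 genes in all were higher. With the replicate number as a block, 10 members were lower, 0 wider neuronal and 0 wider glial genes were higher, and 1077 genes in all were lower and 747 higher. In the labels same-numbered samples share only that number, though control 3 and mutant 3 both held squamous forestomach transcripts. Nos1, Syn1 and Tac1 lost their calls under the block (adjusted p = 0.0505, 0.0604 and 0.0581). Not every sample correlated best with its own number. Elavl2, Vsnl1, Chat, Th, Dbh, Calb2 and Scn9a were below the low-count filter. With the filter dropped 15 members were lower, Th and Scn9a among them (adjusted p = 0.0452 and 0.0254), and the other 5 were not called.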
